A study of Mus musculus with 4 samples.

Results

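The genes described here are 52 that act in mitosis and in the G2 phase before it, a fixed list matched by symbol in a table of 24369 mouse genes, and all 52 were found. The RNA-seq libraries came from splenic CD4 T cells of wild-type C57BL/6 mice, isolated as naïve cells and activated without polarizing cytokines by anti-CD3 on the plate and anti-CD28 in solution, with human IL-2. On day 2 the cells received either an empty MSCV-IRES-eGFP retrovirus (EV RV) or MSCV-Tox-IRES-eGFP (Tox RV). Before day 5 the cells were expanded and rested without anti-CD3 (the sources differ on the length of this rest). On day 5 came a restimulation of 5 h through CD3 (the sources differ on whether anti-CD28 was added). GFP+ cells were then sorted, so that every library holds transduced cells. In Tox RV cells the added Tox was under control of the retroviral vector. There were 2 libraries per group, described by the methods as biological replicates and by a figure legend as 2 individual mice in each group. The age of these mice is not given in the sources used here, which also do not say whether libraries that carry the same replicate number came from the same mouse, culture or day.

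A cell enters mitosis when CDK1, bound to cyclin A2 or a B-type cyclin, is switched on by CDC25 phosphatases and supported by the Polo and Aurora kinases. Condensins and topoisomerase II then compact the chromosomes, kinetochores attach them to a spindle built by kinesins, and the spindle checkpoint holds back the anaphase-promoting complex (APC/C) until every chromosome is attached. Most of these genes are transcribed in a wave late in the cell cycle, so their RNA in a bulk culture is widely read as a measure of proliferation. Activated CD4 T cells divide rapidly after CD3 and CD28 stimulation. In RNA from a whole culture, fewer cells in G2 and mitosis cannot be told apart from less of these transcripts in each such cell.

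Depth ran from 46989997 to 74548723 expected counts per library, and every one of the 52 genes had at least 244 counts in every library, so that counting error was small for all of them. *Tox* was at 11.7 and 5.73 CPM (counts scaled to library size with TMM factors) with EV RV and 121 and 99.9 CPM with Tox RV, as labelled. The T cell genes *Cd3d*, *Cd3e*, *Cd3g*, *Cd4*, *Cd5* and *Lck* summed to 2030 and 1378 TPM (a share of transcripts, which takes length into account) with EV RV and 1992 and 1649 TPM with Tox RV. Markers of B cells summed to at most 2.32 TPM and those of myeloid cells to at most 2.56 TPM, with *Ms4a1* and *Pax5* at 0 in all 4 libraries. A list of 7 CD8 T and NK cell markers summed to 96.0 and 61.4 TPM with EV RV and 66.7 and 41.4 TPM with Tox RV. Most of that sum was *Eomes* (37.31 and 48.26 TPM with EV RV, 31.03 and 30.65 TPM with Tox RV), *Klrd1* (33.18 and 4.21, then 21.86 and 4.26 TPM) and *Klrk1* (19.85 and 5.46, then 8.65 and 2.44 TPM), while *Cd8a* was at no more than 1.15 TPM and *Ncr1* at 0 in each library. Markers of erythroid cells summed to between 9.07 and 21.5 TPM, mostly *Hbb-bt*. In all lists of values below, the order is replicate 1 then replicate 2 of each group.

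The question put by the design is whether ectopic Tox changed these genes in GFP+ cells. Of the 52, 0 reached an adjusted p below 0.05 (edgeR, quasi-likelihood, Benjamini-Hochberg over 14143 genes), where 0% of all genes did. *Tox* itself, with a log2 fold change of 3.675, was not called by this test (edgeR adjusted p = 0.49) but was by DESeq2 (adjusted p = 3.79e-24). A count of 0 in edgeR therefore does not show that the 52 genes were unchanged. At an unadjusted p below 0.05 the count was 0 of 52, beside 3.62% of all genes (1.07% higher and 2.55% lower with Tox RV), and DESeq2 called 0 of 52 at an adjusted p below 0.05, beside 0.121% of all genes. The median log2 fold change (Tox RV minus EV RV) was 0.17, beside 0.00 over all genes tested, and ran from -0.27 for *Cdc25b* to 0.61 for *Spc25*. Of the 52 values, 47 were above 0, a share of 90.4% beside 50.4% of all genes. On the scale log2(TPM + 1) the number above 0 was 38 and the median 0.08, beside a median of -0.05 over all genes. With scaling by library totals 49 were above 0 and the median was 0.27, beside 0.12 over all genes.

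The 95% intervals of the log2 fold changes all covered 0. The intervals were built from the same edgeR test, so this restates the count of 0 at an unadjusted p below 0.05. For 18 genes the interval lay inside a 2-fold change in either direction, and for the other 34 it reached beyond, the outermost bounds being -1.08 and 1.68. The standard errors were between 0.22 and 0.48 log2 units. In 0 of the 52 genes did the groups fail to overlap, whereas 18.6% of all genes tested had both Tox RV libraries above both of EV RV and 17.4% below (36% in all). This count of 0 was the same with median-of-ratios scaling, with library totals and on the deposited TPM. In 51 of the 52 both libraries numbered 2 lay above both numbered 1. That order alone makes the groups overlap, so the count of 0 is no separate result about Tox. With 2 libraries against 2, an exact test of a single value cannot go below p = 0.333.

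**Figure D1:**
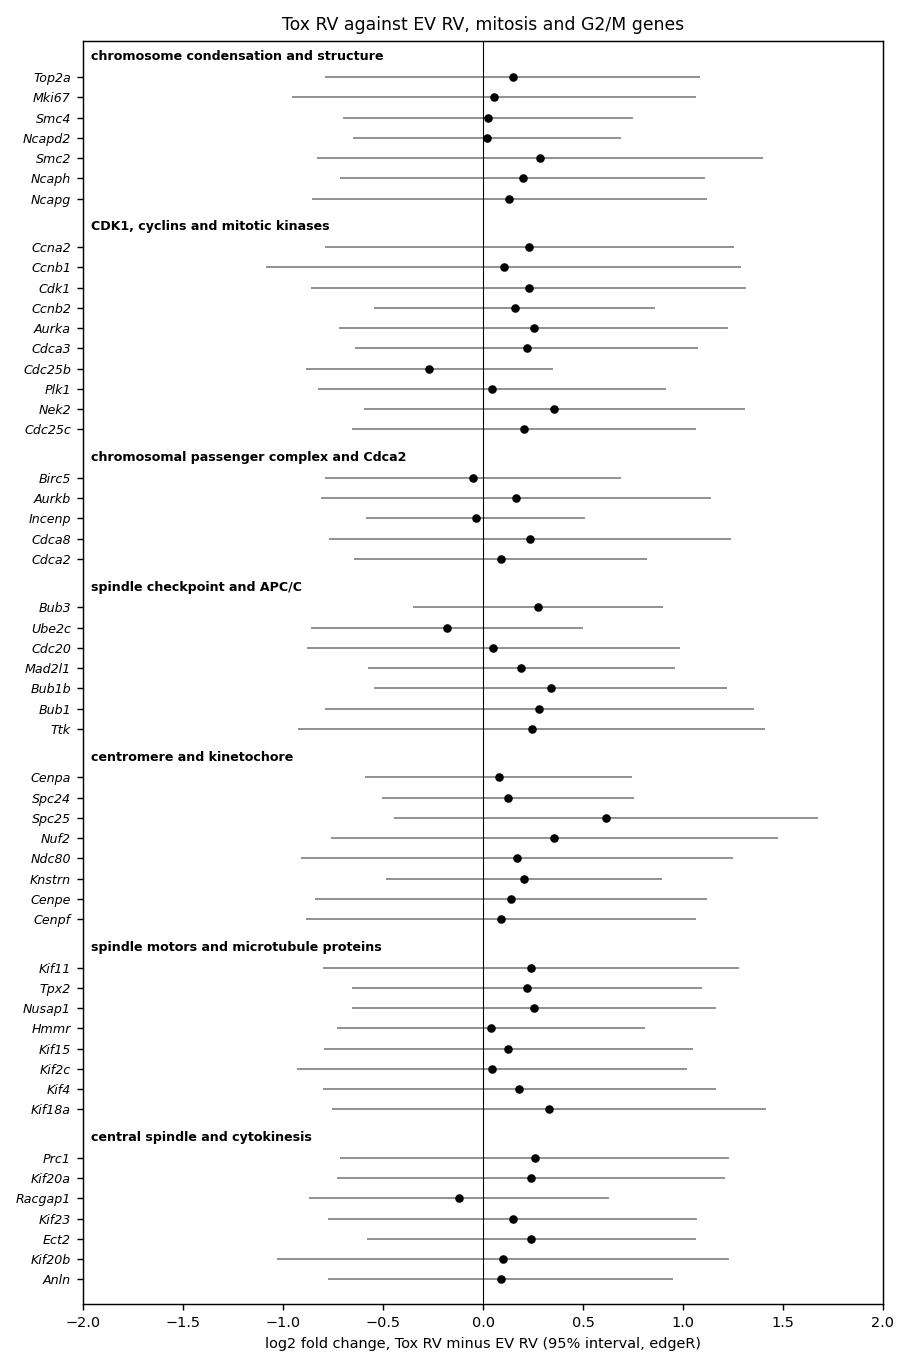
The log2 fold change of Tox RV against EV RV (horizontal axis, log2 units) of each of the 52 genes, grouped by role, with points for edgeR's estimates and bars for their 95% intervals. All bars cross 0, and the points run from -0.27 (*Cdc25b*) to 0.61 (*Spc25*).

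The libraries of one group differed from each other by more than the groups did. The 52 genes together took 1618 and 2591 TPM with EV RV and 1641 and 2763 TPM with Tox RV, so that replicate 2 was the higher library in both groups. The median log2 difference between replicate 2 and replicate 1 was 0.85 in EV RV, a ratio of 1.80, and 0.78 in Tox RV, a ratio of 1.71, while the medians over all genes tested were 0.00 in both. In all 52 genes the difference between the groups was smaller than the difference between the EV RV libraries and smaller than that between the Tox RV libraries. Both libraries numbered 2 lay above both libraries numbered 1 in 51 of the 52, beside 22.6% of all genes, and below them in 0, beside 21.6%. The exception was *Cdc25b*. In 42 of 52 the gap exceeded 0.5 log2 units in each group, beside 3.63% of all genes, a mark chosen after the values were seen.

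Other features differed between the same libraries. The 45S pre-ribosomal RNA took 24.7% and 12% of the counts with EV RV and 10.3% and 7.14% with Tox RV, and the sums of T cell markers and of CD8 T and NK cell markers given above were also larger in replicate 1 of each group. Total counts did not follow this order, at 46989997 and 74548723 with EV RV and 61442264 and 49012254 with Tox RV. Nor did every single marker, as *Eomes* in EV RV (37.31 and 48.26 TPM) and *Cd5* in Tox RV (108.83 and 113.79 TPM) were higher in replicate 2. *Cd8a* was higher in replicate 2 of both groups (0.88 and 1.15 TPM with EV RV, 0.82 and 0.91 TPM with Tox RV). *Cd8b1* was lower there in both (4.1 and 2.17, then 3.9 and 3.04 TPM). The part of these features in the difference between libraries was not tested.

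**Figure D2:**
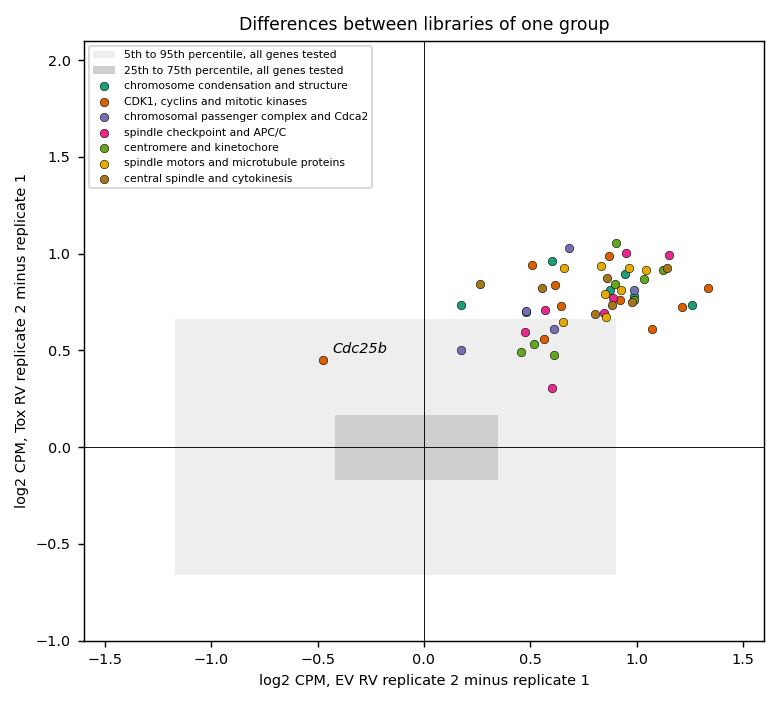
Each point is 1 of the 52 genes, coloured by role, at its log2 CPM difference between replicate 2 and replicate 1 in EV RV (horizontal axis) and in Tox RV (vertical axis), and the grey boxes hold the middle of all 14143 genes tested on each axis. All points but *Cdc25b* lie in the upper right part of the plot, and many lie outside the 5th to 95th percentile box.

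Which library was left out decided the direction. Without EV RV replicate 1, 1 gene was above 0 and 51 were below, their median being -0.17, and without Tox RV replicate 2 the numbers were 2 and 50, with a median of -0.30. Without EV RV replicate 2, 51 were above 0 with a median of 0.62, and without Tox RV replicate 1, 51 were above 0 with a median of 0.49. In those 4 fits 50.5%, 47.6%, 51.4% and 49.2% of all genes lay above 0, in the order just given, and 0 of the 52 reached an adjusted p below 0.05 in any of them. Without EV RV replicate 2, 4.16% of all genes did so (1.19% higher with Tox RV). *Spc25* and *Cdc25b* alone kept 1 direction throughout, at 0.12 to 1.23 and at -0.51 to -0.02. Taken library by library, the median difference was 0.16 for Tox RV replicate 1 against EV RV replicate 1, -0.63 for the former against EV RV replicate 2, 0.98 for Tox RV replicate 2 against EV RV replicate 1 and 0.155 for the remaining pair.

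**Figure D3:**
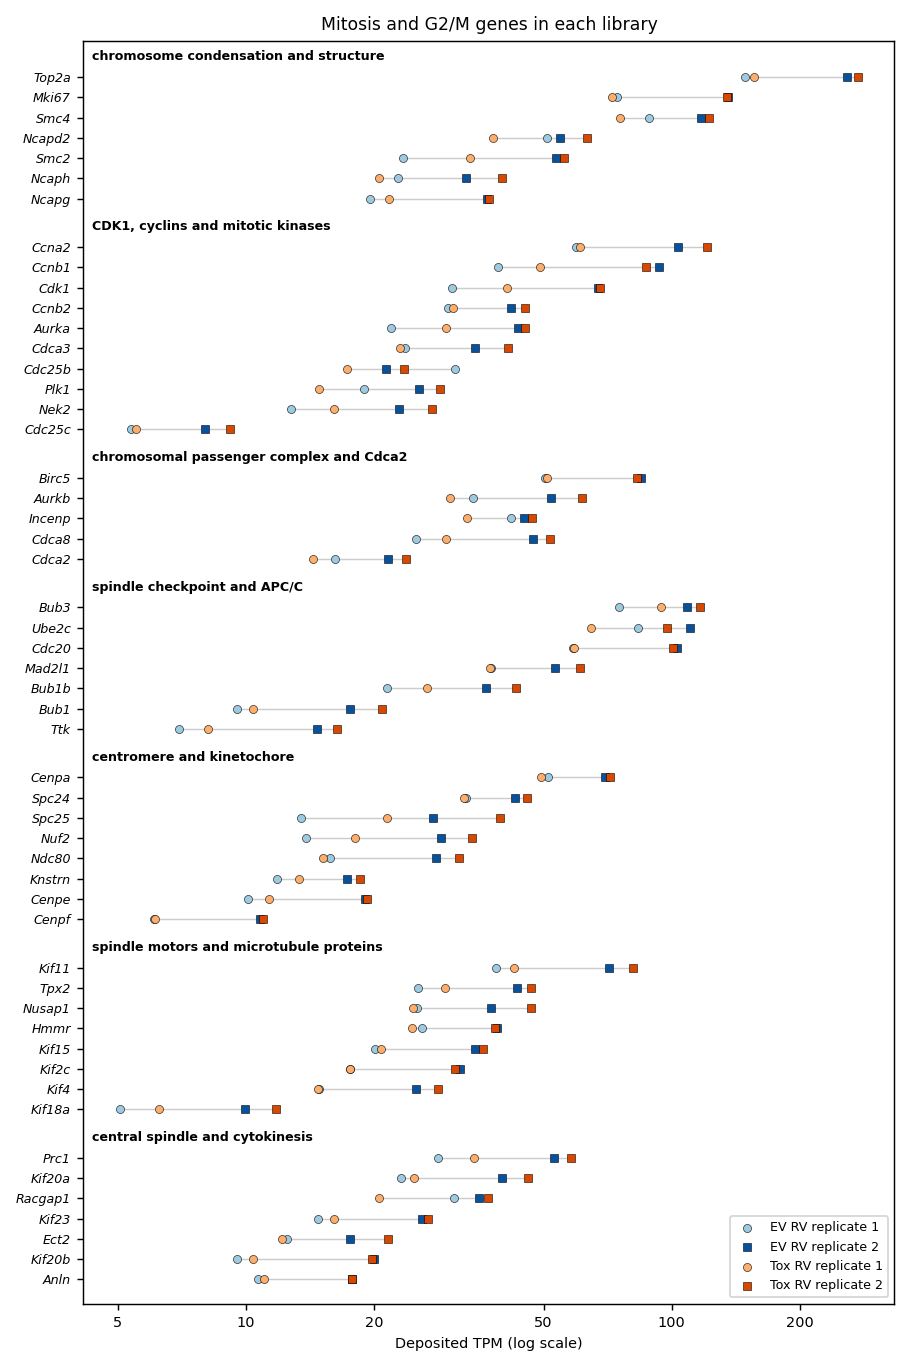
The deposited TPM (horizontal log axis) of each gene in each of the 4 libraries, blue for EV RV and orange for Tox RV, circles for replicate 1 and squares for replicate 2. Levels span 5.07 to 273 TPM, and squares lie to the right of circles in all rows but those of *Cdc25b*.

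By level, *Top2a* led the set at a mean of 209 TPM, followed by *Mki67* at 104 and *Smc4* at 101, and *Kif18a* (8.25) and *Cdc25c* (7.02) closed it. *Mki67* encodes Ki-67, which coats mitotic chromosomes and is the usual stain for cycling cells. It lies on mouse chromosome 7 (mm10) from 135689784 to 135716361 on the minus strand and was at 442 and 851 CPM with EV RV and 470 and 871 CPM with Tox RV. Both replicates 1 were low and both replicates 2 high, and the groups overlapped almost completely, at 646 ± 289 CPM (SD, n = 2) and 670 ± 284 CPM (SD, n = 2). The log2 difference between groups, 0.05, was far inside the gap between libraries (standard error 0.41, edgeR adjusted p = 0.986). *Top2a*, the gene of topoisomerase IIα, which untangles sister chromatids, lies on chromosome 11 from 98992943 to 99024189 (minus strand) and had 451 and 825 CPM with EV RV and 513 and 900 CPM with Tox RV, a log2 fold change of 0.15 (standard error 0.38).

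The condensin genes, too, had log2 fold changes inside their standard errors. Their gaps between EV RV libraries differed, from 0.174 log2 units for *Ncapd2* to 1.26 for *Smc2*. *Smc2*, an ATPase subunit of condensin, was at 75.3 and 181 CPM with EV RV and 117 and 195 CPM with Tox RV, the widest EV RV gap of the 7 genes for chromosome structure at 1.26 log2 units. *Ncapd2*, a regulatory subunit of condensin I, was at 133 and 151 CPM with EV RV and 108 and 180 CPM with Tox RV, so that its EV RV libraries lay between the Tox RV libraries. Both had a log2 fold change inside their standard error, 0.29 (standard error 0.45) and 0.02 (standard error 0.27). *Ncapd2* shares 237 exon bases with the small RNA gene *Scarna10* on the same strand, so reads there are uncertain.

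Among the 10 genes for CDK1, its partners and other mitotic kinases, 9 had a log2 fold change above 0. *Cdk1*, the kinase that drives entry into mitosis (chromosome 10, 69335146 to 69352938, minus strand), was at 49.3 and 114 CPM with EV RV and 72.3 and 120 CPM with Tox RV. *Ccnb1*, its cyclin B1 partner (chromosome 13, 100778650 to 100786570, minus strand), was at 50.6 and 128 CPM with EV RV and 69.2 and 122 CPM with Tox RV. Its EV RV libraries were 1.33 log2 units apart, the widest gap of the 52, and enclosed both Tox RV libraries. *Ccna2* (cyclin A2), the most abundant of these 10 at a mean of 86.1 TPM, was at 95.3 and 174 CPM with EV RV and 106 and 210 CPM with Tox RV, and overlaps *Exosc9* on the other strand over 428 exon bases. In these 3 genes the log2 fold changes were 0.23 (standard error 0.44), 0.10 (standard error 0.48) and 0.23 (standard error 0.41).

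*Plk1*, the Polo-like kinase needed for spindle assembly and mitotic exit (chromosome 7, 122159439 to 122169873, plus strand), was at 23.2 and 33.1 CPM with EV RV and 19.9 and 38.2 CPM with Tox RV. Here the EV RV values lay between those of Tox RV, with a log2 fold change of 0.04 (standard error 0.35). *Nek2*, a kinase that separates centrosomes, had the highest value of the group, 0.36 (standard error 0.39, edgeR adjusted p = 0.902), from 23.4 and 44.3 CPM with EV RV and 32.2 and 54.5 CPM with Tox RV. *Cdc25b*, a phosphatase that activates CDK1 (chromosome 2, 131186949 to 131198497, plus strand), had the lowest of all 52, -0.27 (standard error 0.25, edgeR adjusted p = 0.897). It was at 54.0 and 38.9 CPM with EV RV and 32.6 and 44.5 CPM with Tox RV. EV RV replicate 1 was thus its highest library, where 41 of the 52 genes had their lowest value, and the group means were 46.4 ± 10.7 and 38.5 ± 8.40 CPM (SD, n = 2 each). *Cdc25b* shares 92 exon bases with *Spef1* on the other strand.

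The chromosomal passenger complex, which corrects faulty attachments and later guides cytokinesis, was grouped with *Cdca2*, and 3 of these 5 genes had a log2 fold change above 0, with a median of 0.09. *Aurkb*, its kinase (chromosome 11, 69045647 to 69051664, plus strand), was at 36.9 and 59.2 CPM with EV RV and 35.5 and 72.3 CPM with Tox RV, a log2 fold change of 0.16 (standard error 0.39). *Birc5*, which encodes survivin (chromosome 11, 117849251 to 117855743, plus strand), was at 39.1 and 59.8 CPM with EV RV and 37.8 and 57.6 CPM with Tox RV, nearly the same pair of values in each group, with a log2 fold change of -0.05 (standard error 0.30, 95% interval -0.79 to 0.69). *Cdca8*, the gene of borealin, was at 22.2 and 43.9 CPM with EV RV and 28.3 and 49.7 CPM with Tox RV, the highest log2 fold change of the 5 at 0.23 (standard error 0.41). *Incenp*, the scaffold of the complex, had a log2 fold change of -0.04, and *Cdca2*, which encodes a chromosome-bound phosphatase subunit outside the complex, one of 0.09.

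The spindle checkpoint and APC/C genes included 6 of 7 above 0. *Bub3*, a checkpoint protein that recruits BUB1 to kinetochores, was at 85.6 and 130 CPM with EV RV and 117 and 144 CPM with Tox RV. *Bub1b*, which encodes the APC/C inhibitor BUBR1, was at 45.1 and 81.1 CPM with EV RV and 61.0 and 98.6 CPM with Tox RV, the highest log2 fold change of this group at 0.34 (standard error 0.36). *Ube2c*, the ubiquitin-conjugating enzyme of the APC/C, was at 39.1 and 54.3 CPM with EV RV and 32.8 and 49.6 CPM with Tox RV, the lowest at -0.18 (standard error 0.28). In each of these 3 the value of 1 Tox RV library fell between the EV RV libraries, so the groups overlapped.

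All 8 centromere and kinetochore genes had a log2 fold change above 0. *Spc25*, a subunit of the NDC80 complex that binds microtubules (chromosome 2, 69193895 to 69206194, minus strand), had the largest of the 52, 0.61 (standard error 0.43, 95% interval -0.45 to 1.68, edgeR adjusted p = 0.897). It was at 10.7 and 21.9 CPM with EV RV and 17.7 and 32.3 CPM with Tox RV, or 16.3 ± 7.95 and 25 ± 10.4 CPM (SD, n = 2 each). Tox RV replicate 1 lay below EV RV replicate 2, so these groups overlapped too. The other NDC80 complex genes, *Ndc80*, *Nuf2* and *Spc24*, had log2 fold changes of 0.17, 0.36 and 0.125. *Cenpa*, the histone H3 variant that marks centromeres, was at 39.3 and 56.3 CPM with EV RV and 41.3 and 59.7 CPM with Tox RV, a log2 fold change of 0.08 (standard error 0.27).

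The spindle motors and microtubule proteins were likewise all above 0, by 0.04 to 0.33 log2 units. *Kif11*, the kinesin that pushes spindle poles apart, was at 108 and 211 CPM with EV RV and 130 and 247 CPM with Tox RV. *Kif18a*, a kinesin that dampens chromosome movements, was at 10.1 and 20.9 CPM with EV RV and 13.5 and 25.5 CPM with Tox RV. *Hmmr*, a spindle protein also known as RHAMM, was at 58.4 and 91.9 CPM with EV RV and 60.2 and 94.2 CPM with Tox RV, almost the same pair of values in both groups. In this group of 8 each gene differed between the libraries of a group by at least 0.653 log2 units in EV RV and 0.645 in Tox RV.

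Of the 7 central spindle and cytokinesis genes, 6 had a log2 fold change above 0. *Prc1*, which bundles antiparallel microtubules between the separating chromosomes, was at 48.4 and 95.3 CPM with EV RV and 64.0 and 108 CPM with Tox RV, and overlaps *Rccd1* on the other strand over 670 exon bases. *Racgap1*, a subunit of centralspindlin, was at 51.9 and 62.3 CPM with EV RV and 37.7 and 67.5 CPM with Tox RV. Again the Tox RV values enclosed those of EV RV, with a log2 fold change of -0.12 (standard error 0.30). Over the whole set, 12 of the 52 genes share exon bases with another listed gene, 11 of them with a gene on the other strand. Because the use of strand is not given, reads in those 11 overlaps may be uncertain as well. The longest overlap was of *Kif20a* with *Cdc23*, over 977 exon bases.

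Genes of the same pathway outside the 52 showed the same order of libraries. Of 76 other G2/M genes, 56 had a log2 fold change above 0 and 20 below, with a median of 0.09, and 0 passed an adjusted p of 0.05 in edgeR or DESeq2. Both libraries numbered 2 lay above both numbered 1 in 68 of the 76. The extremes were *Spdl1*, a kinetochore protein that recruits dynein, at 0.36 (standard error 0.40), and *Cenpl*, a centromere protein, at -0.27 (standard error 0.20). Of 46 DNA replication genes 35 lay above 0, with a median of 0.11 and 0 past the threshold, and 45 had both libraries numbered 2 above both numbered 1. Their median gap between replicates was 0.82 log2 units in EV RV and 0.53 in Tox RV, against 0.85 and 0.78 for the 52 mitotic genes, a difference that was not tested. The extremes there were *Prim2*, a DNA primase subunit, at 0.28 (standard error 0.32) and *Chaf1a*, a histone chaperone subunit, at -0.20 (standard error 0.23).

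Factors known to control the transcription of G2/M genes were less uniform across libraries. Of 26 such genes, 11 had a log2 fold change above 0 and 15 below, with a median of -0.06 and 0 past an adjusted p of 0.05 in edgeR or DESeq2. Both libraries numbered 2 lay above both numbered 1 in 10 of the 26, and the groups did not overlap in 7, beside 36% of all genes. The extremes were *Nfyb*, a subunit of the CCAAT-binding factor NF-Y, at 0.43 (standard error 0.23), and *E2f7*, a repressor of cell cycle genes, at -0.51 (standard error 0.31, edgeR adjusted p = 0.897 for both). *Mybl2*, which encodes the activator B-MYB, was looked at after its values were seen and was at 35.6 and 57.9 CPM with EV RV and 34.5 and 54.9 CPM with Tox RV, in the same order as the mitotic genes. *Foxm1*, a forkhead activator also picked afterwards, was at 52.4 and 44.4 CPM with EV RV and 26.3 and 45.7 CPM with Tox RV, so that 1 library, Tox RV replicate 1, stood below the other 3.

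**Figure D4:**
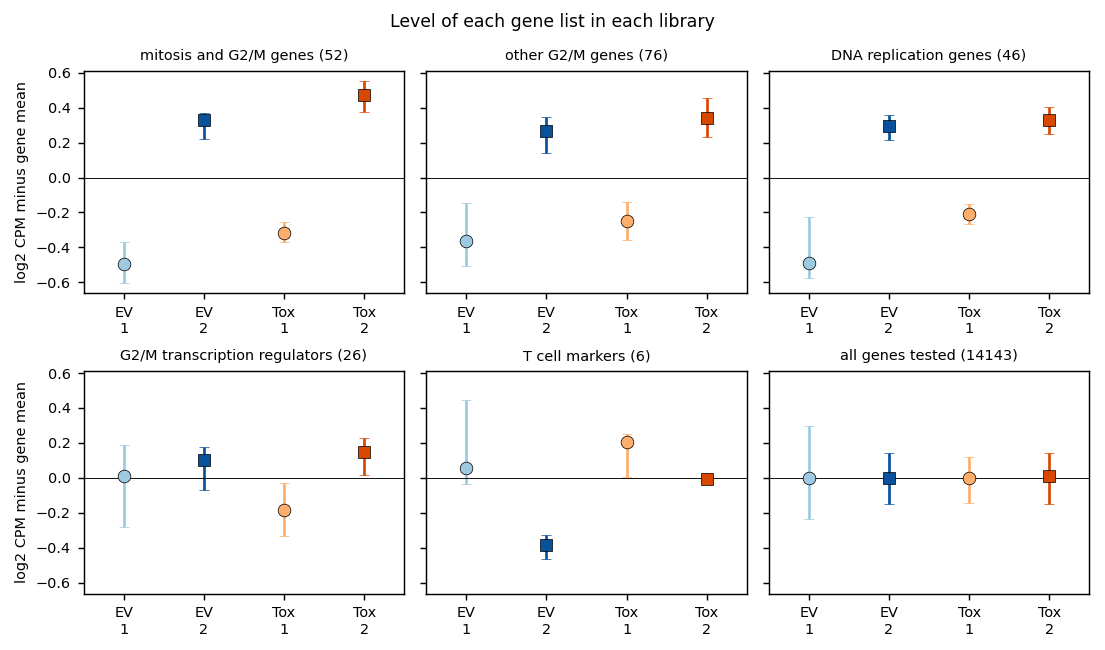
Median log2 CPM of each gene list in each library after taking off each gene's mean over the 4 libraries (points), with bars from the 25th to the 75th percentile of the genes and the number of genes tested in brackets. The mitosis and G2/M genes sit at -0.50 and 0.33 with EV RV and -0.32 and 0.47 with Tox RV, while the medians of all genes tested lie between -0.002 and 0.012.

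The promoters of the 52 genes were read for letters they share. RefSeq windows on GRCm38.p6, from 250 bases before to 50 bases after each annotated start, were matched for 43 of the 52 genes, which gave 46 windows because *Bub3*, *Ect2* and *Prc1* have 2 each. The CCAAT box, which NF-Y binds, was searched as CCAAT on both strands, and the cell cycle genes homology region, which the DREAM and B-MYB complexes bind, as TTTGAA on both strands and as TTTAAA, which reads the same on both. Neighbouring matches of these motifs may share bases. CCAAT stood in 34 of 46 windows, 73.9% beside 37.4% of all 32851 windows, TTTGAA also in 34, 73.9% beside 17.9%, and TTTAAA in 9, 19.6% beside 13.2%. CCAAT together with either of the others occurred in 31 windows, 67.4% beside 10.7%. The same letters were in 62.3% (CCAAT) and 42% (TTTGAA) of windows of the other G2/M genes and in 59.5% and 11.9% of those of DNA replication genes. Median GC content was 59.0% in the 46 windows and 52.7% in all windows. A match of letters is a description and not a bound site.

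The stretches below are the 120 bases just before the annotated start, 5′ to 3′ on the gene's own strand, with matches in capitals. They are printed for some of the genes whose stretch lies outside their own GENCODE exons. They are *Mki67* at chr7:135716380-135716499 (minus strand), *Top2a* at chr11:99024190-99024309 (minus), *Plk1* at chr7:122159315-122159434 (plus), *Kif11* at chr19:37376262-37376381 (plus), *Spc25* at chr2:69206214-69206333 (minus), *Cdc25b* at chr2:131186828-131186947 (plus) and *Birc5* at chr11:117849117-117849236 (plus). *Mki67*, *Top2a*, *Plk1* and *Kif11* are examples with more than 1 match. *Spc25* and *Cdc25b* are the genes with the highest and lowest log2 fold change, and *Birc5* has none of these letters in this stretch. Among stretches not printed, *Hmmr* holds 3 CCAAT matches, *Bub1b*, *Racgap1* and *Smc2* hold 1 each, and *Kif18a* holds none of the letters. Whether the letters go with the order of libraries was not tested.
Mki67: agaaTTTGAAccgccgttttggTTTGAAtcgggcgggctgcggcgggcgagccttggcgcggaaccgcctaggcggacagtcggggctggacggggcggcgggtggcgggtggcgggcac
Top2a: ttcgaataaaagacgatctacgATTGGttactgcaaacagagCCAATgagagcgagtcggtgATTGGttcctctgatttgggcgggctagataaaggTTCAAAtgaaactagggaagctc
Plk1: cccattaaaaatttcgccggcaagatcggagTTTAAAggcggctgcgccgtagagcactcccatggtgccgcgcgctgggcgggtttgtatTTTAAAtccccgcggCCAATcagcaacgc
Kif11: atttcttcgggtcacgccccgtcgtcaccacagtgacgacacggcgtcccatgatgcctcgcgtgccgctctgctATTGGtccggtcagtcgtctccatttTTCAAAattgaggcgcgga
Spc25: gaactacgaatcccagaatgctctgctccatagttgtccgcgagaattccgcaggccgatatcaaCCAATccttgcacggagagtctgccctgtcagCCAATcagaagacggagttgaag
Cdc25b: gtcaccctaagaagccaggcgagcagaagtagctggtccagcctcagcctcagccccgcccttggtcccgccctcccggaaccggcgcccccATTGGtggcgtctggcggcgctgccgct
Birc5: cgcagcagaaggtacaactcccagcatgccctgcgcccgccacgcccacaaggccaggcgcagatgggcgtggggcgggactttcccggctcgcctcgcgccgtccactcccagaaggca
*Top2a* holds 3 CCAAT matches and 1 TTTGAA match here, *Plk1* 1 CCAAT and 2 TTTAAA, *Kif11* 1 CCAAT and 1 TTTGAA, and *Mki67* 2 TTTGAA. *Spc25* holds 2 CCAAT matches and *Cdc25b* 1, with neither of the other motifs in either stretch. The wider search window holds further matches outside these stretches. Among them are TTTGAA in *Spc25* at 24 bases from the annotated start and TTTAAA in *Birc5* at -220.

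**Figure D5:**
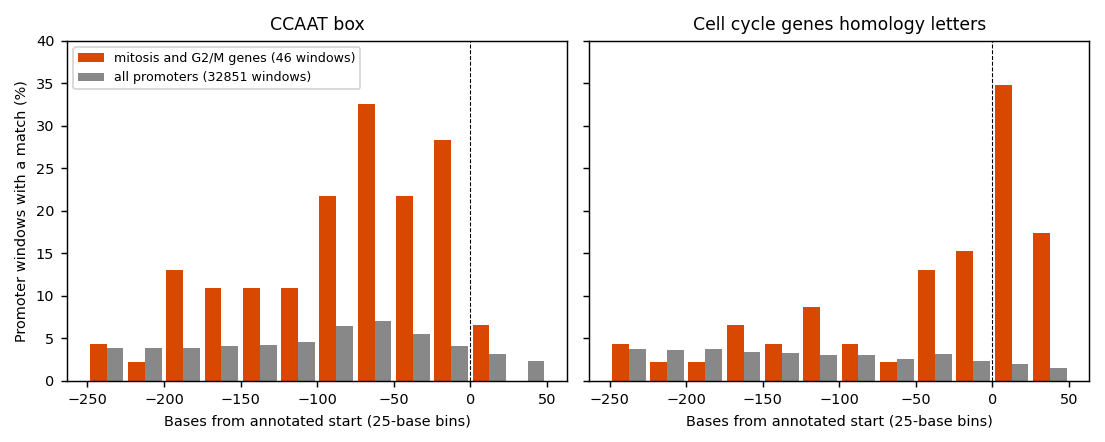
Share of promoter windows (vertical axis, %) with a match that begins in each 25-base bin, by distance from the annotated start (horizontal axis, bases), for the 46 windows of mitosis and G2/M genes and all 32851 windows. CCAAT is most frequent from 75 to 50 bases before the start (32.6% against 6.99%), and TTTGAA or TTTAAA in the first 25 bases after it (34.8% against 1.99%).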

How the data were processed

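RNA-seq was carried out on 4 libraries of sorted GFP+ CD4 T cells, 2 with EV RV and 2 with Tox RV, grouped by the sample labels. The authors checked reads with FastQC, aligned them to mm10 transcripts with Bowtie 1 and quantified genes with RSEM, 1 library per file and without pooling. Tool versions and use of strand are not given in the sources used here. Expected counts, as deposited, are RSEM's fragment estimates for each gene without normalization. TPM values, as deposited, are RSEM's length-scaled levels. A table covering the series, whose columns do not sum as TPM, was left unused.

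Expected counts were rounded, genes were kept by filterByExpr (minimum count 10, 14143 genes), scaled by TMM and compared with glmQLFit and glmQLFTest in edgeR 4.0.16 (R 4.3.3), with p-values adjusted over all genes tested. CPM are TMM-scaled. Single-library log2 values used a prior count of 2. Alternatives were DESeq2 1.42.0, limma 3.58.1 on log2(TPM + 1) and log2(TPM + 0.1), other scalings, no count filter, the replicate number as a block and leaving out each library. The fit was also run on simulated counts with known fold changes, to check the size of its estimates. Those counts held no shared order of replicates, and no value above rests on them. P-values and intervals set the difference between groups against the spread between libraries of a group, with each gene's variance drawn towards that of other genes. Positions and overlaps came from GENCODE M21 (mm10), promoter windows from RefSeq (GRCm38.p6), and copies were sought with blastn 2.17.0 (at least 95% identity over 200 bases), which found besides overlapping genes 1 copy, *2700099C18Rik*, 95.0% identical to *Ndc80* over 303 bases.

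The genes, lists and tests were chosen with earlier results of these data known. Values per library are given for 7 widely used proliferation genes, for the most abundant, highest and lowest member of each role group, and for any member at an unadjusted p below 0.05 (0 were). Of the other lists the genes with the highest and lowest log2 fold change are named.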

Additional observations from a re-analysis of the deposited data

How the results depend on the processing

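Of the 52 mitosis and G2/M genes, 0 passed an adjusted p of 0.05 under every alternative run, while the count over all genes was 22 with DESeq2, 22 without the low-count filter, 16 with the replicate number as a block and 1 to 600 with each library left out. The count over all genes was 0 with median-of-ratios scaling, with library totals and with limma on log2(TPM + 1) and log2(TPM + 0.1). Under those settings 0 of 52 could not differ from the background. The 22 genes with DESeq2 were 0.121% of all genes, so 0 of 52 there does not set these genes apart. The median log2 fold change of the 52 stayed between 0.08 and 0.27 under the settings that kept all 4 libraries, and ran from -0.30 to 0.62 with each library left out. For the DNA replication genes that range was -0.21 to 0.60, and for the G2/M transcription regulators -0.22 to 0.12. The summed TPM of the 52 gave a log2 ratio of 0.07, or 0.05 without the 45S pre-ribosomal RNA.

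Deviations of libraries with the same replicate number correlated at 0.302 across genes. Within a group the libraries came from different mice, but the number is not known to mark the same mouse in both groups. The block was therefore not used for the values above. With the replicate block the median log2 fold change of the 52 was 0.17, and 45 were above 0. In that edgeR fit 0 of the 52 passed an adjusted p of 0.05 (smallest 0.32, *Spc25*). At an unadjusted p below 0.05 the count was 1 of 52 (*Spc25*), against 0 without the block. The share of all genes at that cut with the block was not computed, so this count is not read as a result about *Spc25*. *Plk1* (-0.007) and *Ncapd2* (-0.023) changed direction with the block.

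Among the 23 genes with values per library, 148 of 161 values under settings with all 4 libraries kept their direction. The others, besides those with the block, were *Birc5* with library totals (0.055) and, on log2(TPM + 1) and log2(TPM + 0.1), *Mki67* (-0.022 in both), *Plk1* (-0.085 and -0.091), *Cenpa* (-0.007 in both), *Hmmr* (-0.041 and -0.043) and *Ncapd2* (-0.10 and -0.11). With each library left out, 21 of the 23 changed direction at least once. The log2 fold changes then ran from -0.43 to 0.58 for *Aurkb*, -0.39 to 0.29 for *Birc5*, -0.046 to 0.83 for *Bub1b*, -0.003 to 0.61 for *Bub3*, -0.34 to 0.74 for *Ccna2*, -0.42 to 0.93 for *Ccnb1*, -0.51 to -0.021 for *Cdc25b*, -0.23 to 0.82 for *Cdca8*, -0.26 to 0.97 for *Cdk1*, -0.21 to 0.37 for *Cenpa*, -0.32 to 0.41 for *Hmmr*, -0.30 to 0.81 for *Kif11*, -0.20 to 0.95 for *Kif18a*, -0.46 to 0.61 for *Mki67*, -0.39 to 0.34 for *Ncapd2*, -0.071 to 0.90 for *Nek2*, -0.50 to 0.43 for *Plk1*, -0.16 to 0.83 for *Prc1*, -0.60 to 0.23 for *Racgap1*, -0.22 to 1.06 for *Smc2*, 0.12 to 1.23 for *Spc25*, -0.31 to 0.65 for *Top2a*, -0.51 to 0.081 for *Ube2c*. The cause was not tested. Each of the 52 genes had at least 244 counts in a library. The intervals rest on the spread between 2 libraries per group and on the variance of other genes.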
